A study of Mus musculus with 2 samples.

Results

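The genes described here carried GLORI-detected m6A sites in the cerebellum list of this series and none in the cerebrum list, and the sites are those of these genes. They were selected on the site lists themselves. A gene was taken when its annotated interval held at least 1 cerebellum site within a DRACH 5-mer on its own strand and 0 such sites in the cerebrum. Only autosomal protein-coding genes of GENCODE M21 were considered. The rule found 300 genes (299 symbols) with 539 sites. These were 3.04% of the 9877 coding genes with a DRACH site in either list, 300 of the 7422 such genes in the cerebellum list, and 1.17% of its 45946 DRACH sites in coding genes. The absence from the cerebrum list and the presence in the cerebellum list are therefore how the genes were found and are not results.

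The data were 2 GLORI libraries, 1 from cerebellum and 1 from cerebrum, both tissues of a single female F1r mouse at P0, the day of birth, so that the libraries differ in tissue but share the animal. F1r is the hybrid of a C57 mother and a PWK father, so both libraries carry a C57 and a PWK copy of every autosome. Both were made from RNA treated with glyoxal and nitrite. The deposited lists gave 79355 sites for cerebellum and 188295 for cerebrum as positions and strands, with no methylation rate and no read count. Both deposited names contain the abbreviation bel, the cerebrum one too, and the tissues were taken from the sample labels. The depth of either library is thus unknown, there is no replicate check, and no difference between the tissues was tested. A gene missing from the cerebrum list may lack methylation, expression or sufficient read coverage there, and fewer cells of a type and less RNA per cell cannot be told apart in bulk tissue.

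m6A is placed on nascent mRNA by a methyltransferase complex built around METTL3 and METTL14, which favours the DRACH context (D stands for any base but C, R for a purine and H for any base but G) and leaves most sites in long internal exons and near stop codons. GLORI chemistry converts adenosines without the mark to inosine, which sequencing reports as G, and spares m6A, so each listed site is a single base. The cerebellum arises from the anterior hindbrain next to the midbrain. Its territory is set up by transcription factors of the Engrailed and Pax families, its granule cells come from the rhombic lip, where Barhl1 is expressed, and its Purkinje cells and GABAergic interneurons come from the ventricular zone.

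En1 and En2, the Engrailed homeobox genes that pattern the midbrain and hindbrain, and Barhl1, a homeobox gene of the rhombic lip and granule cell lineage, were the 3 marker genes of the set. Their sites are shown first because a site list consists of positions and the base context is what defines a DRACH site. Each line gives the gene, the region, the distance in spliced nucleotides from the last base of the stop codon (negative upstream), the GRCm38 window and its strand, and then the bases 5′ to 3′ on the transcribed strand. Capitals mark the DRACH 5-mer, and its middle A is the listed position.
En1, CDS, -51 nt, chr1:120607128-120607148, + strand: tggcccagGGACTgtacaacc
En1, CDS, -19 nt, chr1:120607160-120607180, + strand: acggttcaGGACAaagacgag
En1, 3′ UTR, 235 nt, chr1:120607414-120607434, + strand: ggaaaaatAAACAtctattct
En1, 3′ UTR, 268 nt, chr1:120607447-120607467, + strand: ataagatgAAACTgcgaattc
En1, 3′ UTR, 373 nt, chr1:120607552-120607572, + strand: tatttgctGGACAtttttatt
En2, 3′ UTR, 282 nt, chr5:28170707-28170727, + strand: tgcaaaggGGACTgtttaggg
En2, 3′ UTR, 356 nt, chr5:28170781-28170801, + strand: ccattatgGGACAttggacac
En2, 3′ UTR, 363 nt, chr5:28170788-28170808, + strand: gggacattGGACActtcttcc
En2, 3′ UTR, 441 nt, chr5:28170866-28170886, + strand: atttcacaGGACTgtgaaccg
En2, 3′ UTR, 623 nt, chr5:28171048-28171068, + strand: ctctcccgGAACCtctccgcc
En2, 3′ UTR, 1052 nt, chr5:28171477-28171497, + strand: agctacctTGACTttcaaagg
En2, 3′ UTR, 1064 nt, chr5:28171489-28171509, + strand: tttcaaagGAACTcgaatcct
En2, 3′ UTR, 1089 nt, chr5:28171514-28171534, + strand: aatctagaGGACAtgtgtaaa
Barhl1, 5′ UTR, -1242 nt, chr2:28915928-28915948, − strand: attcctccTGACActcccacc
Barhl1, 5′ UTR, -1115 nt, chr2:28915801-28915821, − strand: ccaaggctGAACTccgtccaa
Barhl1, CDS, -814 nt, chr2:28915500-28915520, − strand: cccggaagAGACTgtctggag
Barhl1, CDS, -713 nt, chr2:28915399-28915419, − strand: ccagtcgcGAACTgtcacctc
Barhl1, CDS, -685 nt, chr2:28915371-28915391, − strand: ctgatcagGGACAtccttgct
Barhl1, CDS, -673 nt, chr2:28915359-28915379, − strand: atccttgcTGACTgcaaacct
Barhl1, CDS, -108 nt, chr2:28909726-28909746, − strand: cccttcagAGACCtctggtgc
Barhl1, CDS, -78 nt, chr2:28909696-28909716, − strand: tcatccacGGACTccagggcg
Barhl1, 3′ UTR, 250 nt, chr2:28909368-28909388, − strand: atccttgcGGACTtccccagg
Barhl1, 3′ UTR, 644 nt, chr2:28908974-28908994, − strand: gtgaaaatAAACTtcttacaa
Barhl1, 3′ UTR, 729 nt, chr2:28908889-28908909, − strand: tccataaaTAACTttggcacc

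En1 (chromosome 1, + strand, 5575 nt) held 5 sites, all in its last exon. A pair lay at the end of the coding sequence, at -51 and -19 nt from the last base of the stop codon, and 3 lay in the 3′ UTR between 235 and 373 nt. En2 (chromosome 5, + strand, 6473 nt) held 8 sites, all in the 3′ UTR between 282 and 1089 nt downstream of the stop codon, and 0 of its 19 coding DRACH adenosines were listed. The closest pair of En2 sites was 7 nt apart, at 356 and 363 nt, so that their windows overlap, and 3 of the 8 En2 5-mers were GGACA. Barhl1 (chromosome 2, − strand, 8990 nt) held 11 sites spread over the transcript, with 2 in the 5′ UTR, 6 in the coding sequence and 3 in the 3′ UTR. The 3 genes thus differed in where their sites lay, although all were chosen by the same rule.

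Listed sites were a small part of the DRACH adenosines these transcripts offer. In the longest complete isoform, 5 of 41 DRACH adenosines were listed for En1 (12.2%), 8 of 57 for En2 (14%) and 11 of 61 for Barhl1 (18%). Over all 295 selected genes with a complete isoform, 496 of 18489 were listed (2.68%), against 41456 of 642638 (6.45%) in the 6996 genes with DRACH sites in both lists. The lower overall share goes with the many genes that held 1 site. It was 5.89% for the 79 genes with 2 or more sites and 1.42% for the 216 with 1 site, beside 1.29% for genes of both lists that held 1 cerebellum site.

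**Figure D1:**
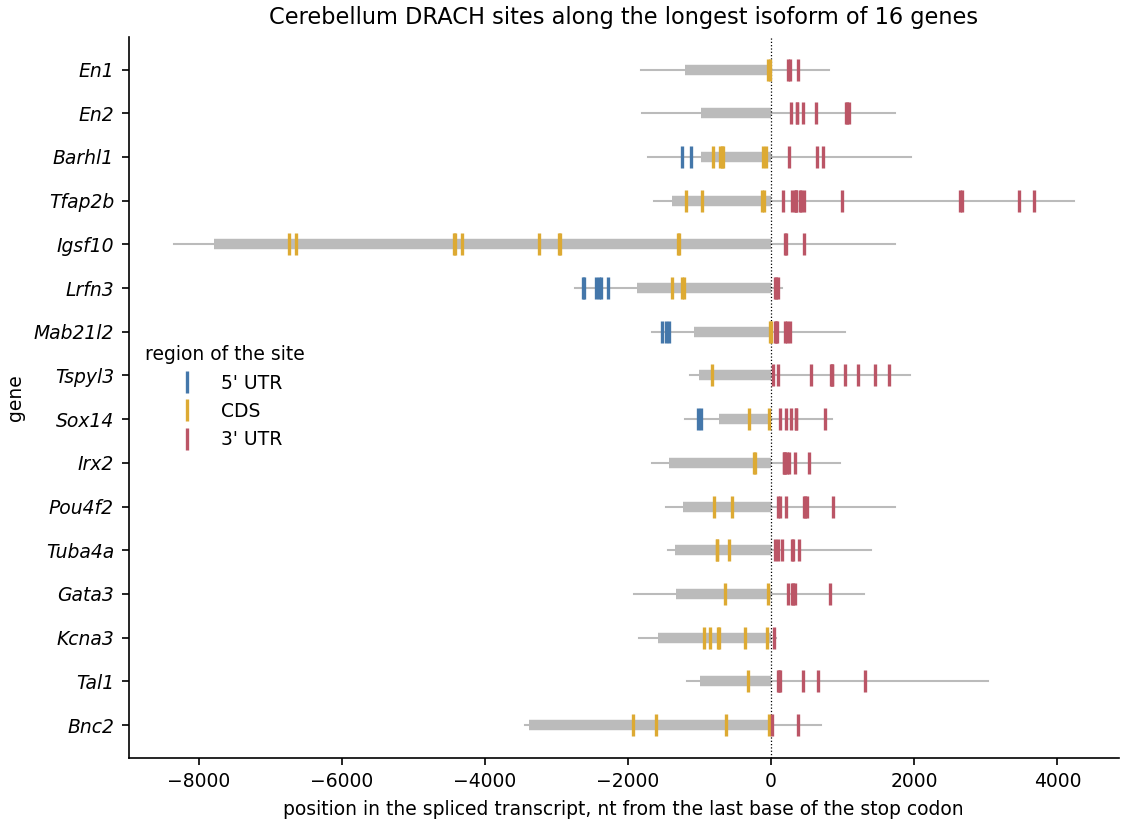
Positions of the cerebellum DRACH sites (vertical ticks, coloured by region) along the longest isoform that carries sites in each of 16 genes; the x axis is the distance in the spliced transcript from the last base of the stop codon in nt, the thick grey bar is the coding sequence and the thin grey lines are the UTRs. All 8 En2 ticks lie in the 3′ UTR, the 11 Barhl1 ticks spread over all regions, and 6 of the 12 Lrfn3 ticks lie in the 5′ UTR.

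The number of sites per gene was uneven. Of the 300 genes, 221 held 1 site (73.7%, 95% Wilson interval 68.4 to 78.3%), 35 held 2, 14 held 3, 4 held 4 and 26 held 5 or more. The 26 genes with 5 or more held 199 of the 539 sites. Among the 7122 genes with DRACH sites in both lists, 23.5% held 1 cerebellum site (22.5 to 24.5%), and their median was 4 sites against 1 for the selected genes. Such intervals cover counting error over genes or sites only. Sites of one transcript lie close together and share its coverage, so intervals over sites are too narrow. Since a gene with few listed sites has more chances to lack any in the other list, the number of sites per gene is not independent of the rule.

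Tfap2b, an AP-2 transcription factor of cerebellar GABAergic interneurons, held the most sites. Its 17 sites were 4 in the coding sequence and 13 in the 3′ UTR, the last of them 3670 nt downstream of the stop codon, and 17 of its 121 DRACH adenosines were listed. Igsf10, which encodes a large secreted immunoglobulin superfamily protein, followed with 13, of which 10 lay in its coding sequence of 7785 nt. Lrfn3, a synaptic adhesion molecule gene, held 12, with 6 of them in the 5′ UTR within its first exon. Mab21l2, a developmental regulator of eye and midbrain, and Tspyl3, a nucleosome assembly protein family gene, held 11 each. Mab21l2 had sites at both ends of its single-exon transcript, 3 in the 5′ UTR and 8 between -10 and 269 nt from the last base of the stop codon, whereas 10 of the 11 Tspyl3 sites lay in the 3′ UTR.

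Sox14, an HMG-box transcription factor of midbrain and hindbrain interneurons, held 10 sites. Irx2, an Iroquois homeobox gene, and Pou4f2, a POU homeobox gene of retinal ganglion and midbrain neurons, held 9 each with 7 in the 3′ UTR. Tuba4a, an alpha-tubulin gene, also held 9, of which 3 were coding. Gata3 and Tal1, which encode a zinc finger and a basic helix-loop-helix transcription factor of midbrain and brainstem GABAergic neurons, held 7 each with 5 and 6 in the 3′ UTR. Kcna3, a voltage-gated potassium channel gene with 1 exon and an annotated 3′ UTR of 61 nt, held 7 with 6 of them coding. Bnc2, a basonuclin zinc finger gene, held 6, of which 4 were coding. To show the context at the end of the coding sequence, the site nearest to the stop codon is given for the 13 of the 15 genes with most sites that are not marker genes.
Tfap2b, CDS, -94 nt, chr1:19234243-19234263, + strand: aaaggcatGGACAagatgttc
Igsf10, 3′ UTR, 200 nt, chr3:59318256-59318276, − strand: ttcaaagcAAACTcttaactt
Lrfn3, 3′ UTR, 50 nt, chr7:30355578-30355598, − strand: acccctcgGGACCtggcctca
Mab21l2, CDS, -6 nt, chr3:86546608-86546628, − strand: gcttggacAAACTatagagtg
Tspyl3, 3′ UTR, 32 nt, chr2:153224270-153224290, − strand: cttacataGGACTcctgctct
Sox14, CDS, -34 nt, chr9:99874986-99875006, − strand: actggcatAGACCcttattcg
Irx2, 3′ UTR, 177 nt, chr13:72633407-72633427, + strand: caacccacAGACTctaaggac
Pou4f2, 3′ UTR, 101 nt, chr8:78434626-78434646, − strand: ctatcagaAAACAattccggt
Tuba4a, 3′ UTR, 54 nt, chr1:75215558-75215578, − strand: ttcgaaatAAACAgtctcctt
Gata3, CDS, -39 nt, chr2:9858399-9858419, − strand: tctccttcGGACCtcaccacc
Kcna3, 3′ UTR, 43 nt, chr3:107038042-107038062, + strand: attgtgtgGAACAtgccccct
Tal1, 3′ UTR, 95 nt, chr4:115068810-115068830, + strand: aggtcaatGGACTtatgtgaa
Bnc2, 3′ UTR, 12 nt, chr4:84275765-84275785, − strand: cccagaacGGACActccaaat

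These sites lay between -94 nt (Tfap2b) and 200 nt (Igsf10) from the last base of the stop codon. Mab21l2 had the closest, at -6 nt, which lay 4 nt from its neighbour at -10 nt, and no neighbouring pair in a selected gene lay closer. Sites within a gene were often close together. Over the 254 neighbouring pairs the median genomic gap was 131 nt, and 116 pairs (45.7%) were within 100 nt.

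**Figure D2:**
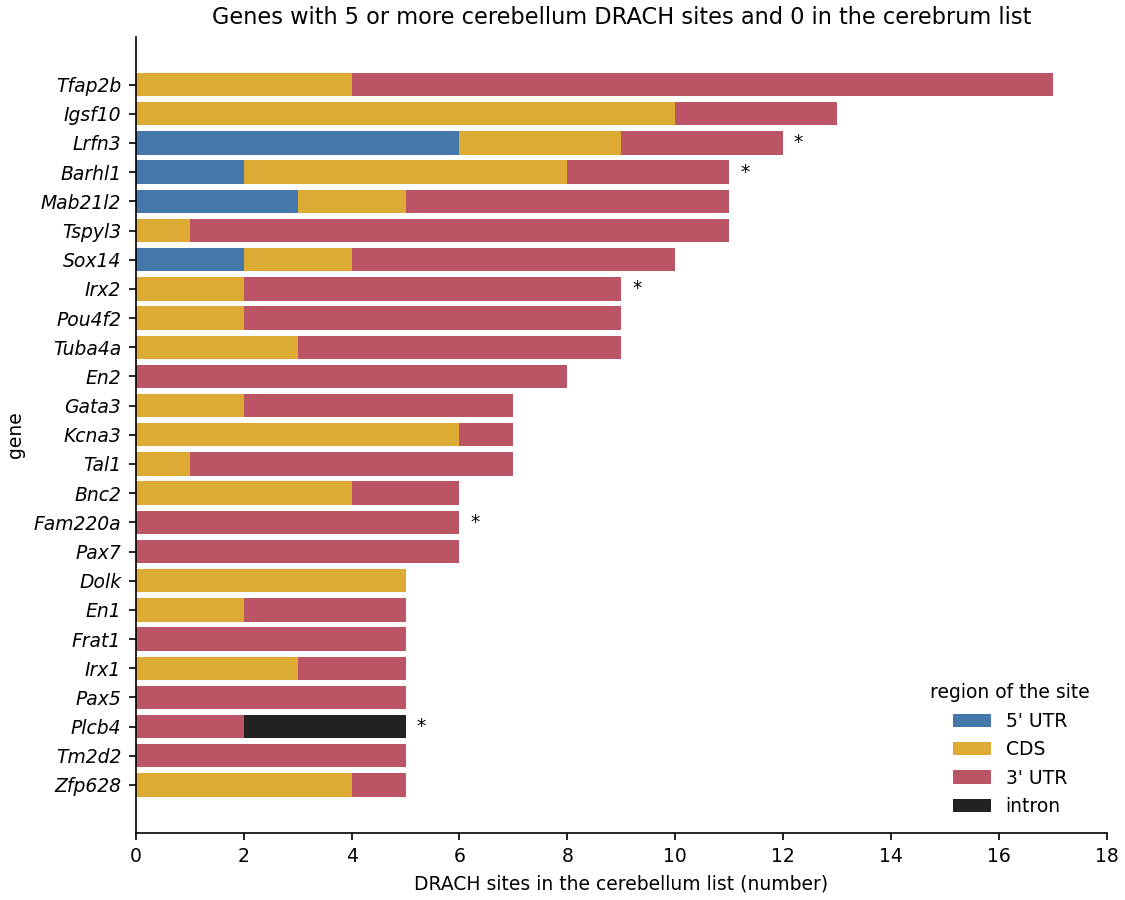
Number of DRACH sites in the cerebellum list (x axis) for each selected gene with 5 or more (y axis), with the bars split by region of the site; Fam220a is drawn once although it is annotated as 2 overlapping genes that share its 6 sites. A star marks a gene with cerebrum sites outside DRACH. Tfap2b leads with 17 sites, and most bars end in a 3′ UTR part.

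Of the 26 genes with 5 or more sites, 20 had no cerebrum site of any 5-mer. The cerebrum list held 1 such site in Barhl1, 2 in Irx2, 3 in Lrfn3, 2 in Plcb4 and 1 in each annotation of Fam220a, all outside DRACH. On the same strand, the closest cerebrum site of any kind lay 718961 nt from the closest En1 site, 92197 nt from En2 and 427 nt from Barhl1. It lay 1122391 nt from Irx1 and 624674 nt from Bnc2. Such distances depend in part on the rule, which leaves no cerebrum DRACH site inside the gene, and were not compared with other genes. Kcna3 was different, with no cerebrum site in its annotated interval but one 108 nt from its closest site. When gene ends were extended by 1000 nt, Kcna3 gained a cerebrum DRACH site and was no longer selected, the 1 gene with 3 or more sites for which this held. When sites on either strand were counted, this held for Tuba4a, Plcb4 and Syt2, a synaptotagmin gene with 3 sites that was named after its values were seen.

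Over all 300 genes, 167 held at least 1 cerebrum site outside DRACH (55.7%, 50 to 61.2%), and 133 held no cerebrum site at all. The rule did not use sites outside DRACH. They share a transcript's cerebrum coverage with its DRACH sites, however, so the share is not independent of the rule. The share was 62.4% (55.9 to 68.6%) for the genes with 1 site and 36.7% (26.9 to 47.7%) for those with 2 or more. It was 84.6% (82.8 to 86.3%) for genes of both lists that held 1 cerebellum site, which have a cerebrum DRACH site by definition. In genes with DRACH sites in the cerebrum alone, 27.2% (25.4 to 29%) held a cerebellum site outside DRACH. The 521 cerebrum sites outside DRACH lay in the coding sequence (157), the 3′ UTR (164), other exons (94), introns (88) and the 5′ UTR (18), and 46 were also in the cerebellum list. They were most numerous in Atp13a3, a P-type ATPase gene, with 16, and in Pi4ka, a lipid kinase gene, with 15. Fxr1, an RNA-binding protein gene, Ints8, an Integrator subunit gene, and Slc4a3, an anion exchanger gene, held 13 each. Each of these 5 genes held 1 cerebellum DRACH site. The coverage of that position in the cerebrum is not known from the lists. The closest cerebrum site was within 1000 nt for 86 genes and over 100000 nt away for 47, with a median of 8334 nt, again without a comparison set.

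The position of the sites was compared with other cerebellum DRACH sites. Of the 539 sites, 332 lay in 3′ UTRs (61.6%, 57.4 to 65.6%), 145 in coding sequence (26.9%, 23.3 to 30.8%), 20 in 5′ UTRs (3.71%), 21 in other exons and 21 in introns (3.9%, 2.56 to 5.88%). In genes of both lists, the 37453 sites found in both tissues lay in 3′ UTRs in 53.7% (53.2 to 54.2%) and in coding sequence in 38.9% (38.4 to 39.4%), with neither interval overlapping that of the selected genes. The 7954 sites of those genes found in the cerebellum alone had more intronic positions, 14.7% (13.9 to 15.5%). Sites of genes with DRACH sites in the cerebrum alone lay in 3′ UTRs in 55.9% (54.7 to 57.2%) and in coding sequence in 32.3% (31.1 to 33.4%). Neither interval overlapped that of the selected genes. Nearest in both shares were genes in both lists with 1 cerebellum site, with 66.5% in 3′ UTRs (64.2 to 68.7%) and 24.5% in coding sequence (22.5 to 26.6%). When these were set beside the selected genes with 1 site, at 58.3% (51.7 to 64.7%) and 27.8% (22.2 to 34.1%), the intervals overlapped for both regions. The larger 3′ UTR share of the selected genes thus was not seen against genes with equally few sites.

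**Figure D3:**
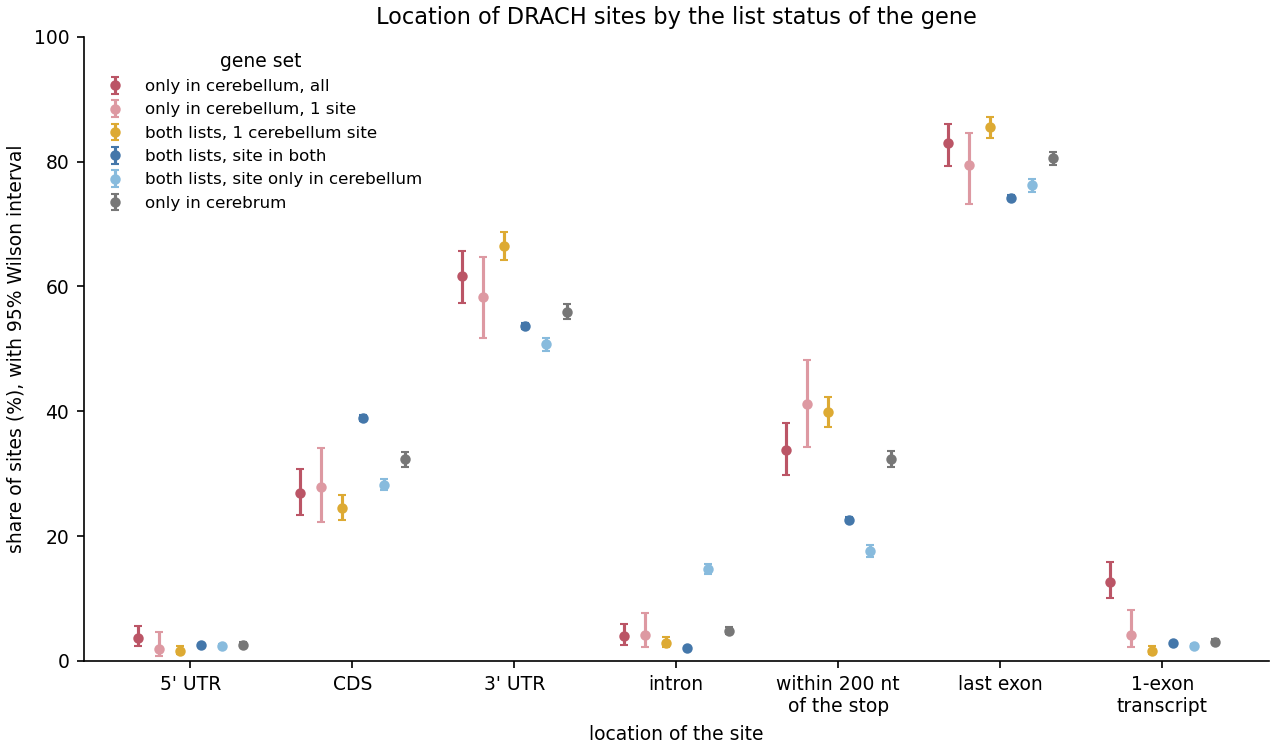
Share of DRACH sites in % (y axis, points with 95% Wilson intervals over sites) at each location (x axis) for the selected genes, the selected genes with 1 site and 4 comparison sets; the last 3 locations use sites on coding transcripts. The selected genes have 61.6% of sites in 3′ UTRs and 12.7% in transcripts with 1 exon, while sites of both-list genes found in the cerebellum alone stand out with 14.7% in introns.

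The 3′ UTR excess over available positions was measured within the transcripts of the selected genes as well. Their 3′ UTRs held 45.8% of the DRACH adenosines and 66.7% of the listed ones, and their coding sequences held 46.9% and 29.2%. A 3′ UTR adenosine was listed in 3.91% of cases and a coding one in 1.67%. In the selected genes with 1 site these shares were 2.06% and 0.959%, close to the 2.04% and 0.708% in genes of both lists with 1 cerebellum site. Over all genes of both lists they were 7.61% and 5.54%.

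Sites were concentrated around the stop codon. Of the 497 sites on coding transcripts, 168 lay within 200 nt of the last base of the stop codon (33.8%, 29.8 to 38.1%), against 22.6% (22.2 to 23%) of the sites found in both tissues. In genes with DRACH sites in the cerebrum alone it was 32.4% (31.1 to 33.6%), an interval inside that of the selected genes. The share was 41.1% (34.3 to 48.2%) for selected genes with 1 site and 39.8% (37.4 to 42.3%) for genes of both lists with 1 cerebellum site, whose intervals overlapped. The median site of the selected genes lay 131 nt downstream of the stop codon, with quartiles at -136 and 467 nt. The last exon held 412 of the 497 sites (82.9%, 79.3 to 86%). The share was 79.5% (73.2 to 84.6%) in the selected genes with 1 site and 85.6% (83.7 to 87.2%) in the genes of both lists with 1 cerebellum site, with overlapping intervals. In bins of 100 nt, the first and the second bin downstream of the stop codon held 61 and 62 sites.

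**Figure D4:**
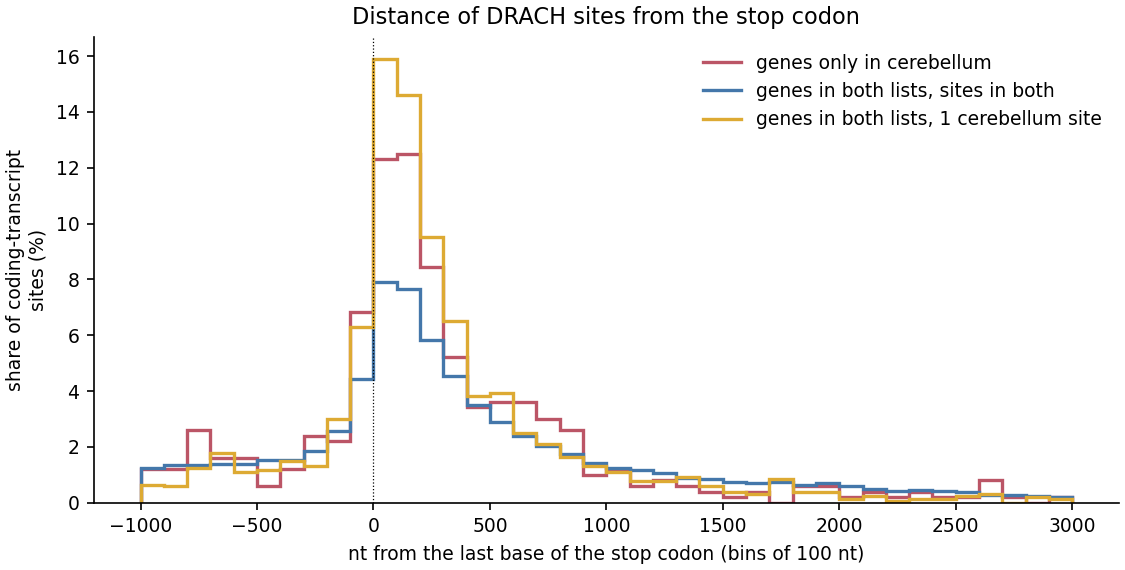
Share of coding-transcript DRACH sites in % (y axis) in bins of 100 nt of distance from the last base of the stop codon (x axis, negative upstream) for the selected genes, for sites of both-list genes found in both tissues and for both-list genes with 1 cerebellum site. The bins from 0 to 200 nt hold 12.3% and 12.5% of the sites of the selected genes, 7.91% and 7.67% of the sites found in both tissues, and 15.9% and 14.6% of the sites of both-list genes with 1 cerebellum site.

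The selected genes were shorter than genes of both lists. Their median length was 16788 nt and that of their longest complete isoform 2683 nt, against 34318 and 3957 nt for genes of both lists. Genes of both lists with 1 cerebellum site were nearer, with medians of 23302 and 3048 nt, and genes with DRACH sites in the cerebrum alone were nearer still, with 20770 and 2953 nt. The median 3′ UTR was 908 nt, against 1676 nt in genes of both lists, 1129 nt in those with 1 cerebellum site and 1017 nt in genes listed in the cerebrum alone. Transcripts with 1 exon carried 63 of the 497 sites on coding transcripts (12.7%, 10 to 15.9%), against 2.9% (2.73 to 3.08%) of the sites found in both tissues. Mab21l2, Tspyl3, Sox14 and Kcna3 supplied 39 of these 63. Counted by gene, 17 of 295 had 1 exon (5.76%, 3.63 to 9.03%), against 157 of 6996 genes of both lists (2.24%, 1.92 to 2.62%). In genes listed in the cerebrum alone it was 56 of 2405 (2.33%, 1.8 to 3.01%). Among genes with 1 cerebellum site the shares were 3.7% (1.89 to 7.14%) for the selected genes and 1.46% (0.982 to 2.16%) for genes of both lists, with overlapping intervals.

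Most 5-mers had shares close to those of sites found in both tissues. GGACT was the most frequent at 77 of 539 sites (14.3%, 11.6 to 17.5%), followed by GAACT (12.4%), AGACT (11.1%), GGACA (9.09%), TGACT (9.09%) and AAACT (8.91%). GGACT made up 14% of the sites found in both tissues and 8.69% (8.09 to 9.33%) of the sites of both-list genes found in the cerebellum alone. TAACT made up 5.01% (3.47 to 7.19%), against 2.92% (2.76 to 3.1%) of sites found in both tissues, with intervals that did not overlap. It was 1 of 8 5-mers compared, and its interval overlapped that of the genes of both lists with 1 cerebellum site (3.34%, 2.58 to 4.33%). The last base was T in 60.9% (56.7 to 64.9%), against 62.9% (62.4 to 63.4%) of sites found in both tissues. In genes of both lists with 1 cerebellum site that share was 68% (65.7 to 70.2%), without overlap. In the selected genes with 1 site it was 60.6% (54 to 66.9%), with overlap. Selected genes lay on all 19 autosomes, where they were between 2.68% (chromosome 18) and 5.82% (chromosome 5) of the genes with a cerebellum DRACH site.

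Next, 13 lists of tissue and cell type genes were read against the set, and the status of each listed gene was counted beside the 3.04% over all genes. Among 10 genes of midbrain-hindbrain patterning, 4 had a DRACH site in either list and 3 of these were selected, namely En1, En2 and Pax5, a paired box gene with 5 sites in its 3′ UTR. Gbx2 had 1 cerebellum and 2 cerebrum DRACH sites. Among 21 genes of the rhombic lip and granule cell lineage, 16 had a site and 2 were selected, Barhl1 and its paralog Barhl2, whose 3 sites were all coding. Among 26 genes of the Purkinje cell and cerebellar GABAergic lineages, 17 had a site and 5 were selected. These were Tfap2b, its paralog Tfap2a with 2 sites, Ebf2, an early B-cell factor gene with 4, Plcb4, the Purkinje cell phospholipase C gene, with 5, and Lhx5, a LIM homeobox gene of early Purkinje cells, with 1. Of the 5 Plcb4 sites 3 were intronic.

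The list of brainstem and midbrain neuron genes was the largest, with 29 genes. Of these 15 had no DRACH site in either list, among them Th, Tph2, Fev, Dbh and Chat. This list gave the largest number of selected genes, 11 of its 14 genes with a site. They were Sox14 (10 sites), Irx2 and Pou4f2 (9 each), Gata3 and Tal1 (7 each), Irx1 (5), Irx5 (4), Pou4f1 (3), Foxa1 (2), Gata2 (1) and Slc6a4, the serotonin transporter gene (1). Of the remaining 3, Otx2, a forebrain and midbrain homeobox gene, had 11 cerebellum and 2 cerebrum DRACH sites, and Nr4a2, a nuclear receptor gene of dopamine neurons, had 12 and 19. Isl1, a LIM homeobox gene, was listed in the cerebrum only, with 12. Slc6a3 and Slc18a2, which encode the dopamine and the vesicular monoamine transporter, and Pax7, a paired box gene of the dorsal midbrain, were selected as well, with 1, 1 and 6 sites. They were in no list and were named after their values were seen. Genes of a list drawn up for brainstem and midbrain neurons were thus present in the list labelled cerebellum. The cells their RNA came from cannot be told from positions. Their part in the other results was not tested.

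Several defining cerebellar genes were not selected. Neurod1 and Pax6, transcription factors of granule cells and of cortical neurons, had 0 cerebellum and 15 and 2 cerebrum DRACH sites. Zic1, a zinc finger gene of granule cell precursors, had 14 in each list, and Cbln1, a granule cell synaptic organiser gene, had 11 and 15. Rora, a nuclear receptor gene of Purkinje cells, had 27 cerebellum and 15 cerebrum DRACH sites. Atoh1, Gabra6, Pcp2, Skor2 and Calb1 had no DRACH site in either list, and Calb1 alone of these had sites outside DRACH, 2 in cerebellum and 5 in cerebrum. The selected genes thus included patterning genes and only part of the cerebellar cell type markers. A list without read counts cannot show whether the missing genes were expressed.

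**Figure D5:**
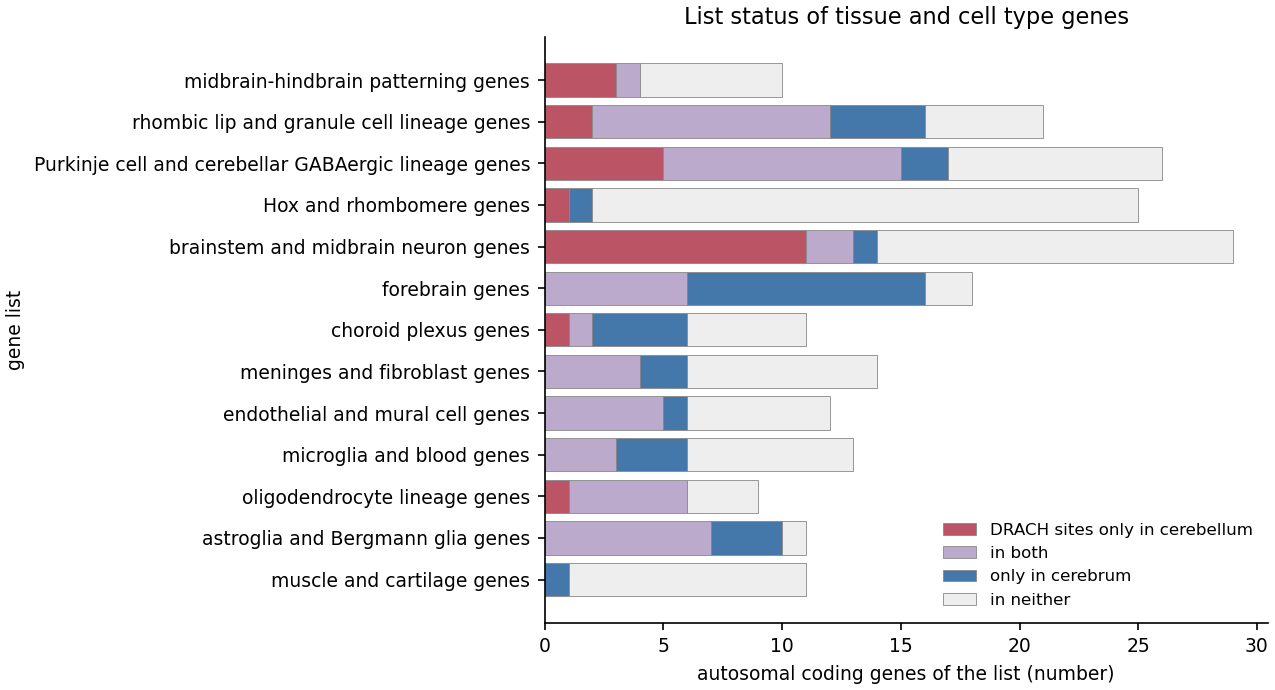
Number of autosomal coding genes (x axis) of each tissue or cell type list (y axis) with DRACH sites in the cerebellum alone, in both lists, in the cerebrum alone or in neither. The 11 selected genes of the brainstem and midbrain list, the largest list with 29 genes, are the most of any list. Forebrain genes have 0 selected and 10 with sites in the cerebrum alone.

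Each of the other lists contributed 0 or 1 gene, and most had few genes with a DRACH site in either list. None of the 18 forebrain genes was selected, 10 had DRACH sites in the cerebrum alone, and 6 had sites in both lists. Of 25 Hox and rhombomere genes 23 had no DRACH site in either list, and of the other 2 Hoxb3 was selected with 1 site. Prlr, the prolactin receptor gene, was selected with 1 site from 11 choroid plexus genes, of which 6 had a DRACH site. Nkx2-2, a homeobox gene of ventral neural progenitors and oligodendrocytes, was selected with 3 sites. It came from the oligodendrocyte lineage list, where 6 genes had a DRACH site. With so few genes with a site, these shares cannot be ranked against those of the cerebellar lists. No gene was selected from the lists of meninges, endothelium, microglia and blood, astroglia, or muscle and cartilage. In that order, these lists had 6, 6, 6, 10 and 1 genes with a DRACH site. Of the 11 muscle and cartilage genes 10 had no DRACH site in either list.

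Genes were also grouped by symbol, after the members had been seen. Genes of developmental transcription factor families, with Mab21l2 counted among them, made up 27 of the 300 genes but held 143 of the 539 sites. Of the 105 such genes with a DRACH site in either list 27 were selected (25.7%), 20 of them had no cerebrum site of any kind, and 6 held 1 site. Of their sites 95 lay in 3′ UTRs, 38 in coding sequence, 7 in 5′ UTRs and 3 in introns. Smaller shares of other groups were selected, though several were above the 3.04% over all genes. The groups were drawn up after the members had been seen, so these shares are descriptive only. Of the 28 cytosolic ribosomal protein genes with a DRACH site 4 were selected (14.3%), namely Rpl27a, Rps12, Rps13 and Rps19 with 1 site each. The respiratory chain and ATP synthase subunits gave 6 of 45 (13.3%), with 7 sites. The proteasome subunits gave 3 of 22 (13.6%) with 1 site each. All 6 and all 3 of these had cerebrum sites outside DRACH. Zinc finger genes named Zfp gave 7 of 304 (2.3%), below the share over all genes.

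Olfactory and vomeronasal receptor genes gave 14 of 143 (9.79%), with 17 sites of which 16 lay in 3′ UTRs. Of the same 143 genes, 69 had DRACH sites in both lists and 60 in the cerebrum alone, so such sites were not particular to the selected genes. These receptor genes are known for expression in the nasal epithelium. Reads in gene families can come from near-identical copies, which was not tested, so the origin of their sites is uncertain. Fam220a is a single locus annotated under 2 gene identifiers, and its 6 sites count for both. In all, 15 sites lay inside 2 or more of the selected genes and 7 inside another coding gene that was not selected, while 5 lay on an exon of an annotated gene that was not selected.

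The rule admitted 0 cerebrum DRACH sites, and 532 genes lay just outside it with 1 such site, 427 of them with 1 cerebellum DRACH site as well. In 386 the cerebrum site was at a position also listed in the cerebellum. Those with the most cerebellum sites were Lhx1, a LIM homeobox gene of Purkinje cell precursors, and Shox2, a homeobox gene of midbrain and hindbrain neurons, with 11 each. Pgm1, phosphoglucomutase, and Selenot, a selenoprotein, followed with 5. Abi1, an actin regulator, Adcy8, an adenylate cyclase, and Tmem117 held 4 each, and AI464131 held 3. Just inside the rule, Lrfn3, Barhl1 and Irx2 held 12, 11 and 9 cerebellum sites with 0 cerebrum DRACH sites and between 1 and 3 cerebrum sites outside DRACH.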

How the data were processed

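GLORI was carried out by the authors on RNA of the cerebellum and the cerebrum of 1 female F1r mouse at P0, with 1 library per tissue. The authors called m6A sites with GLORI-tools against the mm10 genome and against mm10 carrying PWK alleles at SNPs, merged both sets per library and required a read count over 8 and a rate of methylation over 0.1. The deposited files give 1 genomic position and strand per site, with no rate, read count or score, so the depth is unknown, and a position can be missing from a list because of low coverage.

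Positions were looked up in GRCm38, the assembly that mm10 names. Gene models were GENCODE M21, which is not the release named in the methods, so gene ends and regions may differ from the authors'. A site was DRACH by its GRCm38 5-mer on the site strand and counted for every autosomal protein-coding gene whose interval holds it on that strand. Its region came from the longest isoform of that gene that covers it and has its coding sequence and both UTRs complete, otherwise from another exon or an intron. Windows of 10 nt on either side were read from GRCm38, and DRACH adenosines were counted in the exons of the longest complete isoform.

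Shares have 95% Wilson intervals. With 1 library per tissue and no rates, no test was made. The genes, the 13 gene lists and the comparisons were chosen with earlier results of these data known, so they support nothing independently. The genes named were the marker genes En1, En2 and Barhl1, the 15 selected genes with most sites, all selected genes of a gene list, the 8 genes just outside the rule with most cerebellum sites and the 5 selected genes with most cerebrum sites outside DRACH, with ties by symbol. Other genes were named after their values were seen. The alternatives changed the gene model, overlapping genes, the central base, the strand, the gene end, the cerebrum sites that bar a gene, the least number of sites, the isoform and the stop codon window. The lookup of genes and the region of a site were tested on simulated DRACH sites, in genes chosen not to overlap another coding gene on their strand. Overlapping genes, sites outside DRACH and sites on the opposite strand were not simulated. Python 3.11.15, numpy 2.4.6, pysam 0.24.0, samtools 1.23.1 and matplotlib 3.10.9 were used.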

Additional observations from a re-analysis of the deposited data

Results flagged for a closer look

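The comparisons used DRACH sites on the strand of the gene, and sites outside them were present in both lists. In the selected genes the cerebellum list held 261 sites outside DRACH, in 136 of the 300 genes, and 1 of these positions is not an A in GRCm38. Snrpn held 10 of them, Tfap2b 9 and Atp13a3 and Mat2a 7 each, where Snrpn and Mat2a were named after their values were seen. On the opposite strand, the cerebrum list held 118 sites inside the intervals of 23 selected genes. No control library was at hand for either count, and the source of these sites was not tested.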

How the results depend on the processing

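Of 38 values under the alternatives, 29 stayed within 1.5 times the count or within the interval of the share, and 9 moved. Barring a gene for a cerebrum site of any 5-mer left 133 genes with 311 sites, of which 68.2% lay in 3′ UTRs and 0.643% in introns, and Barhl1 was no longer among them. Requiring 2 or more cerebellum DRACH sites left 323 sites in 79 genes, and 36.7% of these genes had a cerebrum site outside DRACH. Counting exons alone gave 0 intronic sites by construction, and a window of 400 nt around the stop codon held 51.1% of the sites on coding transcripts. Under the settings that changed the gene model, the overlapping genes, the central base, the strand or the gene end, the number of genes was between 283 and 308, and between 280 and 300 of the 300 genes were kept. No paired analysis was possible because each tissue had 1 library and no test was made. The lists hold no read counts, so no value could be weighed by depth.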
